A study of Homo sapiens with 6 samples.

Results

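The Notch genes described here are 9 of the 17318 genes listed in every library: the receptor genes NOTCH1, NOTCH2 and NOTCH3, the ligand genes JAG1 and JAG2, the cleavage genes ADAM10 and NCSTN, the DNA-binding factor gene RBPJ and the target gene HES1. They were chosen by symbol, as core parts of the pathway, with earlier results of these data known. RNA was measured in SNU216 cells, an established gastric cancer line, at 48 h after transfection with an siRNA. The siControl group (3 libraries) received a control siRNA, and the siOXTR group (3 libraries) an siRNA against OXTR, the oxytocin receptor gene. All 6 libraries came from the same parental line, and neither siRNA sequence is in the labels. The series title names the oxytocin receptor and YAP. The comparison of siOXTR with siControl gives how the Notch genes differed between the groups. With siOXTR as the only knockdown condition, effects of losing OXTR and other effects of the siRNA cannot be told apart.

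Notch signalling passes between touching cells. A Jagged or Delta ligand on one cell pulls on a Notch receptor on its neighbour, ADAM10 sheds the receptor's outer part, and gamma-secretase, which contains nicastrin (NCSTN), then cuts within the membrane. The freed intracellular domain enters the nucleus and joins RBPJ and a Mastermind protein to switch on genes such as HES1. In the gastrointestinal epithelium the pathway is known for holding progenitor cells in an undifferentiated state.

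Values are FPKM, a level per transcript length and per library total, so levels of different genes can be set side by side. Changes were tested with limma on log2(FPKM + 1) over the 11550 genes that averaged 1 FPKM or more, and "fell" or "rose" means an adjusted p under 0.05. For genes near 1 FPKM that scale gives too small a fold change, and ratios of mean FPKM are given beside them as "-fold". Whether the 3 libraries per group are separate cultures is not in the labels, so each p-value reflects only how far these libraries scatter. In bulk RNA, fewer cells of a kind and less RNA per cell cannot be told apart.

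OXTR was at 39.37, 38.87 and 39.02 FPKM in siControl and at 4.76, 4.65 and 5.34 FPKM in siOXTR, so each library matched its label. Epithelial markers were high in every library, with a sum over 7 genes of 7024 to 8097 FPKM in siControl and 8063 to 8225 FPKM in siOXTR, although CDH1, EPCAM and CLDN4 within that list fell. Fibroblast markers summed to 1.62 to 2.02 FPKM in siControl and 0.61 to 0.81 FPKM in siOXTR, and endothelial markers to 0.59 to 0.96 and 0.39 to 0.62 FPKM; no gene of either list reached 1 FPKM on average over the 6 libraries. Blood markers summed to 8.77 to 10.24 and 8.25 to 9.10 FPKM, mostly from CD68, which fell, with CD3E at 0 in 5 of 6 libraries. Their part in the results was not tested. FPKM sums were 417829 to 434167 per siControl library and 446246 to 459595 per siOXTR library. Across tested genes the middle log2 fold change was 0.128 with the deposited values and 0.013 after a trimmed-mean scaling of the libraries (TMM-type scaling), a shift of -0.115.

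Of the 9 Notch genes 8 fell and 1, HES1, rose. Among all tested genes 59.8% changed: 17.6% fell and 42.2% rose. The median log2 fold change of the 9 Notch genes was -1.08. For 5 of them the fall was at least 1 on that scale, as for 2.34% of all tested genes. NOTCH1 fell short of that size at -0.93 with the deposited values, and was at -1.02 after TMM-type scaling. The siControl and siOXTR values did not overlap for any of the 9, as for 64.4% of all tested genes. The counts of 8 and 1 were the same after TMM-type scaling, when 24.5% of all tested genes fell and 19.3% rose.

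**Figure D1:**
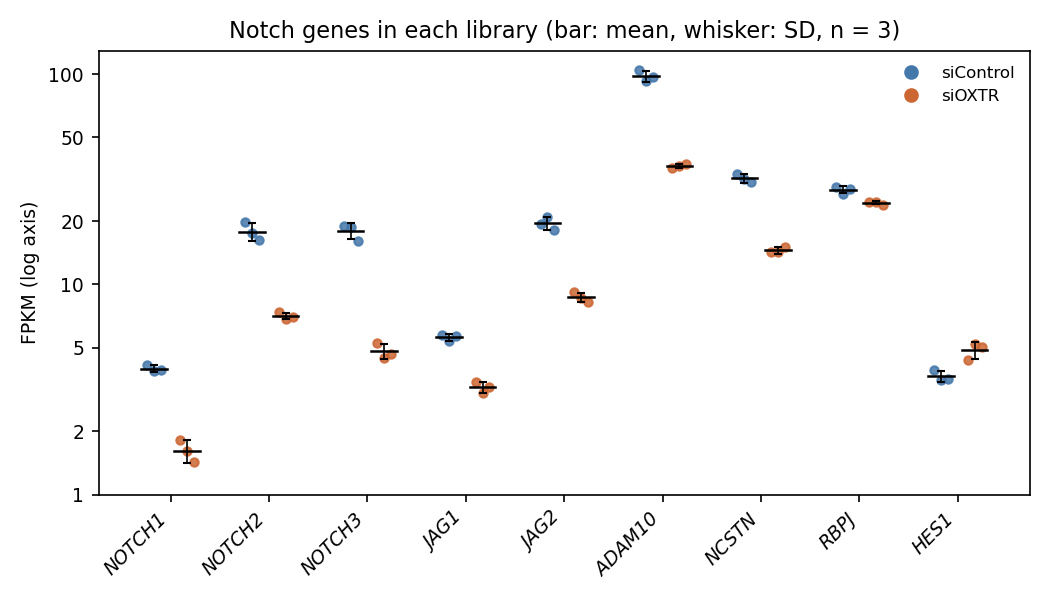
FPKM (log axis) of the 9 Notch genes in each siControl and siOXTR library, with the mean as a bar and the SD as a whisker. The siOXTR points lie below the siControl points for the 3 receptors, both ligands, ADAM10, NCSTN and, by the smallest margin, RBPJ, and above them for HES1.

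The 3 receptor genes fell together. NOTCH3, on chromosome 19 from 15159038 to 15200981 (GRCh38), was at 18.87, 18.83 and 16.14 FPKM in siControl and at 5.26, 4.49 and 4.68 FPKM in siOXTR. Every siOXTR library was below every siControl library, with a drop of the mean from 17.9 ± 1.57 to 4.81 ± 0.401 FPKM (SD, n = 3 each), or 3.73-fold. Its log2 fold change was -1.70 (SE 0.076, adjusted p = 3.54e-09, limma) and ranked 22 from the lowest among all tested genes.

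NOTCH2, on chromosome 1 from 119911553 to 120069626, held 19.70, 17.58 and 16.19 FPKM in siControl and 7.37, 6.84 and 7.03 FPKM in siOXTR. It fell 2.52-fold (log2 fold change -1.22, SE 0.072, adjusted p = 4.16e-08, limma). In siControl its range overlapped that of NOTCH3, and in siOXTR all its values were above those of NOTCH3. NOTCH1, on chromosome 9 from 136494433 to 136545786, was the least abundant of these 3 receptors, at 4.16, 3.87 and 3.92 FPKM in siControl and 1.83, 1.61 and 1.43 FPKM in siOXTR. The NOTCH1 groups were well apart, and the ratio of means was 2.45-fold (log2 fold change -0.93, SE 0.078, adjusted p = 1.05e-06, limma). NOTCH4, a receptor known mainly from endothelium, was between 0.04 and 0.10 FPKM in all 6 libraries and was not tested.

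The mix of receptors shifted as well as their sum. The 3 receptors summed to 42.7, 40.3 and 36.2 FPKM in siControl and to 14.5, 12.9 and 13.1 FPKM in siOXTR. NOTCH3 made up 44.2%, 46.7% and 44.5% of that sum in the siControl libraries and 36.4%, 34.7% and 35.6% in the siOXTR libraries, a difference of -9.58 percentage points. NOTCH2 went from 44.8% ± 1.24 to 52.4% ± 1.32 (SD, n = 3 each) of the sum. The share of NOTCH1 was 10.0% ± 0.663 in siControl and 12.0% ± 0.968 in siOXTR, with the highest siControl value (10.8%) just under the lowest siOXTR value (10.9%). Such shares within a library do not depend on the library total. Each of the 3 gave an exact permutation p of 0.1 (two-sided, 3 libraries against 3), the smallest p this design allows, and 0.1 after adjustment over the 7 ratios computed.

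NOTCH2 has partial human copies, the NOTCH2NL genes, that carry its first exons almost unchanged, and the labels do not say how reads shared between them were counted. The summed level of NOTCH2NLA, NOTCH2NLB and NOTCH2NLC was 9.23, 7.23 and 6.18 FPKM in siControl and 9.99, 7.67 and 8.68 FPKM in siOXTR. The copies did not follow NOTCH2 down: NOTCH2NLA rose 1.60-fold, by 0.40 on the log2 scale (SE 0.082, adjusted p = 0.0013, limma). NOTCH2NLB and NOTCH2NLC were at 0.13 and 0.04 on that scale and did not pass the threshold. With the FPKM of the copies added to that of NOTCH2 as it stood, the NOTCH3 share differed by -16.4 percentage points. The NOTCH1 share then differed by -1.18, in place of a gain of 1.94. FPKM is per transcript length, and the main NOTCH2NLA transcript has 1874 bases against 11389 for NOTCH2. Fragments of the copies would weigh less if counted on NOTCH2, so this sum does not measure shared reads. Shares with fragments reassigned were not computed.

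**Figure D2:**
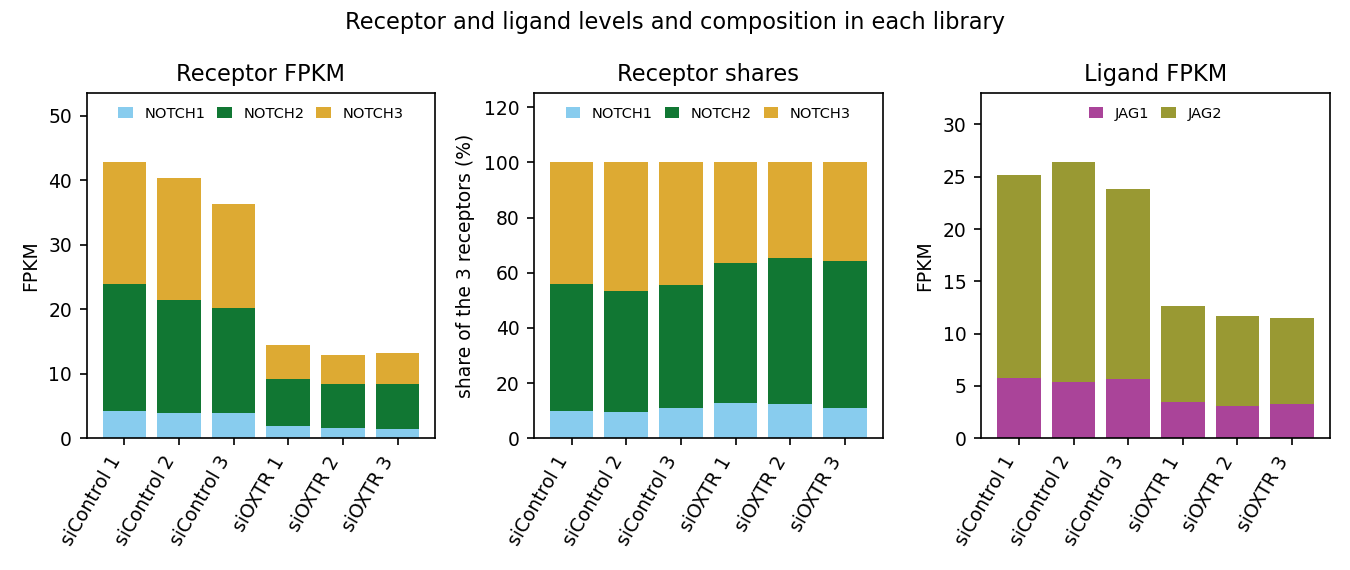
Stacked levels of the 3 receptors (left, FPKM) and of JAG1 and JAG2 (right, FPKM), with each receptor's share of the receptor sum in percent (middle), for each library. The receptor sum is 36.2 to 42.7 FPKM in siControl and 12.9 to 14.5 FPKM in siOXTR, and the NOTCH3 part of the middle bars is smaller in all 3 siOXTR libraries.

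Both ligand genes fell, JAG2 more than JAG1. JAG2, on chromosome 14 from 105140981 to 105168824, was the main ligand gene, at 19.38, 21.01 and 18.14 FPKM in siControl and 9.18, 8.61 and 8.27 FPKM in siOXTR. The fall was 2.25-fold (log2 fold change -1.08, SE 0.067, adjusted p = 6.14e-08, limma). JAG1, on chromosome 20 from 10637684 to 10673999, went from 5.77, 5.36 and 5.70 to 3.43, 3.06 and 3.24 FPKM, a fall of 1.73-fold (log2 fold change -0.64, SE 0.067, adjusted p = 8.01e-06, limma). Neither ligand's groups overlapped. JAG1 made up 22.9%, 20.3% and 23.9% of the sum of both in siControl and 27.2%, 26.2% and 28.1% in siOXTR (exact permutation p = 0.1, two-sided, the smallest possible).

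Delta-type ligands were scarce. DLL1 and DLL4 were at most 0.14 FPKM in any library. DLL3, which is known as an inhibitor of Notch signalling within the cell that makes it, averaged 1.36 ± 0.210 FPKM in controls and 1.48 ± 0.0862 FPKM with siOXTR (SD, n = 3 each) and did not pass the threshold (log2 fold change 0.07, and -0.0008 after TMM-type scaling). Among 3 tested ubiquitin ligase genes that act on ligands for endocytosis 1, NEURL1, rose, beside 42.2% of all tested genes. NEURL1 went from 2.72 ± 0.271 to 3.74 ± 0.271 FPKM (log2 fold change 0.35, SE 0.079, adjusted p = 0.00263, limma). The other 2 did not pass the threshold.

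ADAM10, the protease that makes the ligand-dependent cut, was the most abundant of the 9 genes and had the second largest fall. It lies on chromosome 15 from 58588807 to 58749978. Its FPKM was 104.13, 92.47 and 96.75 with the control siRNA and 35.77, 36.42 and 37.23 with siOXTR, a narrow band far under the lowest control. The fall was 2.68-fold (log2 fold change -1.40, SE 0.056, adjusted p = 1.50e-09, limma). ADAM17, the related sheddase of EGF ligands and of tumour necrosis factor, went from 19.8 ± 1.36 to 11.0 ± 0.378 FPKM (SD, n = 3 each), with a log2 fold change of -0.79. The log2 ratio of ADAM10 to ADAM17 averaged 2.31 ± 0.062 in siControl and 1.73 ± 0.0729 in siOXTR, a difference of -0.58 (exact permutation p = 0.1, two-sided, the smallest possible).

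Tetraspanins of the TspanC8 group bring ADAM10 to the cell surface. Of the 5 tested genes in the group of ADAM17 with these tetraspanins 3 fell (ADAM17, TSPAN15 and TSPAN14) and TSPAN10 rose, where 17.6% of all tested genes fell and 42.2% rose. TSPAN15 averaged 33.1 ± 0.877 FPKM without and 24.6 ± 0.709 FPKM with the knockdown, and TSPAN14 7.87 ± 0.570 and 5.90 ± 0.328 FPKM (SD, n = 3 each). TSPAN17 averaged 23.0 and 21.5 FPKM, short of the threshold with the deposited values and lower after TMM-type scaling (adjusted p = 0.00935, limma). The rise of TSPAN10, a gene near 1 FPKM, was lost after TMM-type scaling (adjusted p = 0.116, limma) and without any of 5 of the libraries, all but siControl replicate 2 (0.0541 to 0.117).

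Among the gamma-secretase genes described here NCSTN had the largest fall. Nicastrin, the subunit with a large outer domain through which substrates reach the protease, is encoded by NCSTN on chromosome 1 from 160343272 to 160358952. It was at 33.50, 31.72 and 30.59 FPKM in siControl and at 14.19, 14.21 and 15.12 FPKM in siOXTR. The groups were separate by a wide margin, with means of 31.9 ± 1.47 and 14.5 ± 0.531 FPKM (SD, n = 3 each; log2 fold change -1.09, SE 0.057, adjusted p = 1.44e-08, limma).

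The scaffold gene APH1A averaged 66.0 ± 3.02 and 60.5 ± 1.34 FPKM, short of the threshold with the deposited values (log2 fold change -0.12, adjusted p = 0.0632, limma), though it fell after TMM-type scaling (-0.25, adjusted p = 0.00242). PSENEN, the smallest subunit, averaged 34.5 ± 2.29 FPKM for siControl and 35.3 ± 2.44 FPKM for siOXTR, with overlapping groups. APH1B and PSEN2, the less abundant alternative subunits, also fell, with log2 fold changes of -0.37 and -0.20. The PSEN2 call was lost without siControl replicate 1 (adjusted p = 0.0598), siOXTR replicate 2 (0.0558) or siOXTR replicate 3 (0.0995, limma).

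**Figure D3:**
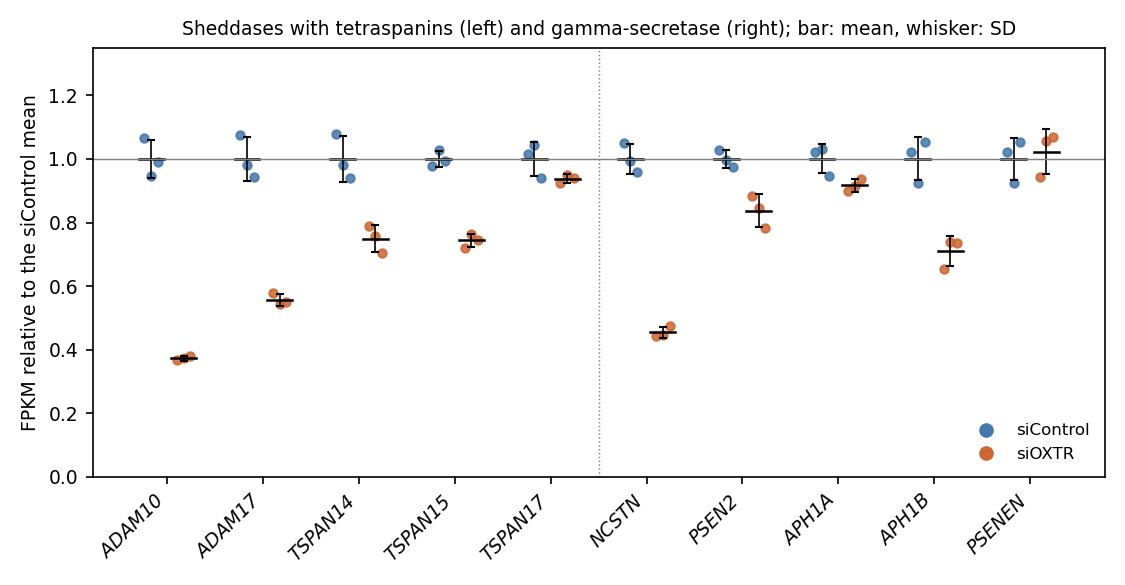
FPKM of sheddase, tetraspanin and gamma-secretase genes in each library, divided by the gene's siControl mean, with the mean as a bar and the SD as a whisker. ADAM10 and NCSTN lie lowest among the sheddase and gamma-secretase genes respectively, while PSENEN and TSPAN17 lie near the control level.

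Among enzymes that prepare the receptor, FURIN and POFUT1 fell most. Of 7 tested glycosylation and processing genes 5 fell and none rose, beside 17.6% and 42.2% of all tested genes, and 6 were lower after TMM-type scaling, beside 24.5%. All but FURIN were predicted to have a start stretch alone (a sorting described further on), and of tested genes of that kind 46.4% fell. FURIN, the convertase that cuts the receptor precursor in the Golgi, fell from 21.9 ± 2.28 to 11.5 ± 0.975 FPKM (log2 fold change -0.88, SE 0.081, adjusted p = 2.27e-06, limma). POFUT1, which adds fucose to EGF-like repeats of Notch, fell from 35.4 ± 3.25 to 20.3 ± 0.0802 FPKM. LFNG, a fringe enzyme that extends that fucose, fell from 11.0 ± 1.67 to 8.59 ± 0.847 FPKM. POGLUT1 and EOGT, which add glucose and N-acetylglucosamine, fell too, with log2 fold changes of -0.31 and -0.28, though the EOGT call was lost without siControl replicate 1 (adjusted p = 0.0513, limma). The other 2 genes of the group, both fringe enzymes, did not pass the threshold.

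Of 8 tested genes for receptor turnover 5 rose and none fell, beside 42.2% and 17.6% of all tested genes. Of those 5, 1 was still higher after TMM-type scaling and another gene, AAK1, was then lower, beside 19.3% and 24.5% of all tested genes. NEDD4, a ubiquitin ligase, rose from 20.9 ± 1.40 to 26.7 ± 0.368 FPKM (log2 fold change 0.34, SE 0.059, adjusted p = 0.000467, limma) and kept its call after that scaling (adjusted p = 0.0111). The Deltex ligase genes DTX2 and DTX4 rose by 0.29 and 0.21, and ITCH, another ligase acting on Notch, by 0.19 on the log2 scale. All 3 calls were lost after TMM-type scaling (adjusted p = 0.0975, 0.286 and 0.300, limma). The DTX4 call was also lost without siOXTR replicate 1 (adjusted p = 0.0568).

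RBPJ, the DNA-binding factor that the receptor's freed domain joins, changed least among the 8 genes that fell. It lies on chromosome 4 from 26163455 to 26435131. Control values were 29.04, 26.96 and 28.53 FPKM, and siOXTR values 24.68, 24.73 and 23.96 FPKM. The groups did not overlap, and the fall was 1.15-fold (log2 fold change -0.20, SE 0.053, adjusted p = 0.0076, limma), and -0.32 after TMM-type scaling (adjusted p = 0.000377). Second in abundance among the 9 genes in siOXTR, it was behind NCSTN as well as ADAM10 in siControl.

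HES1, a repressor of the basic helix-loop-helix family and a direct target of the Notch and RBPJ complex, lies on chromosome 3 from 194136145 to 194138732. It was at 3.91, 3.51 and 3.54 FPKM in siControl and 4.38, 5.23 and 5.05 FPKM in siOXTR. All siOXTR values were above all siControl values, and the mean rose from 3.65 ± 0.223 to 4.89 ± 0.448 FPKM (SD, n = 3 each), or 1.34-fold. The log2 fold change was 0.34 (SE 0.076, adjusted p = 0.00246, limma), and 0.23 after TMM-type scaling (adjusted p = 0.0258). The log2 ratio of HES1 to RBPJ went from -2.95 ± 0.0592 to -2.33 ± 0.145 (exact permutation p = 0.1, two-sided, the smallest possible). In siControl HES1 was the lowest of the 9 genes, overlapping NOTCH1, and in siOXTR it was above NOTCH1 and JAG1 and overlapped NOTCH3.

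Promoters of RBPJ, HES1 and HES4 are shown, as those with a match among the genes searched, because RBPJ recognises a short sequence, GTGGGAA, with TGGGAA as its core. RefSeq promoter windows (GRCh38.p14, 250 bases before to 50 bases after a start) were found for all 9 genes and were searched for both motifs on both strands, where each GTGGGAA also holds a TGGGAA. The core was in a window of 2 of the 9 genes, HES1 and RBPJ, and among all 35116 windows 24% held it. The full motif was in windows of the same 2 genes, and 6.25% of all windows held it. Those percentages are shares of windows, not of genes, so they are not a like measure for the gene counts. RBPJ had 5 windows, 1 of them with matches, and each other Notch gene had 1 window. A share per gene was not computed. The 150 bases before the start are printed 5′ to 3′ on the gene's strand, with matches in capitals, for HES1 (chr3:194135998-194136147, plus strand), for HES4 (chr1:1000098-1000247, minus strand), a related target gene, and for the RBPJ start with matches (chr4:26319596-26319745, plus strand, 1 of 5 RBPJ windows).
HES1: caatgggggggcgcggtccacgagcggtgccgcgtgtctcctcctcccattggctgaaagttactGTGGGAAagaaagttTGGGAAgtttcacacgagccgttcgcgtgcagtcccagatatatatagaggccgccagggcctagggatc
HES4: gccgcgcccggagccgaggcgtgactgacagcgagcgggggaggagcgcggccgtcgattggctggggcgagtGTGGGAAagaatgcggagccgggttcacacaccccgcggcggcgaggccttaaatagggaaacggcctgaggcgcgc
RBPJ: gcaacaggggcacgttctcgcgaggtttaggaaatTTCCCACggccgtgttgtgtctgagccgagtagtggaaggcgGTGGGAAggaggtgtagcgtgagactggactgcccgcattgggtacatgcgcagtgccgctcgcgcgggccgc
HES1 holds 2 cores, which start 84 and 70 bases before the gene start, the first of them within a full motif. HES4 holds 1 full motif, 77 bases before its start. RBPJ holds 2 full motifs on opposite strands. Windows with 2 or more full motifs made up 0.248% of all windows, and those with 2 or more cores 3.8%. The windows of the target genes CDKN1A and NRARP held neither motif. A match is a description of the sequence, and binding was not measured.

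Other target genes moved in both directions. Of 6 tested targets besides HES1 2 rose and 3 fell, and 1 rose and 3 fell after TMM-type scaling. Of all tested genes 42.2% rose and 17.6% fell, and 19.3% and 24.5% after that scaling. CDKN1A, the cell cycle inhibitor gene that Notch and p53 can both induce, rose from 25.2 ± 2.41 to 33.5 ± 1.32 FPKM (log2 fold change 0.40, SE 0.069, adjusted p = 0.00044, limma). CCND1, the cyclin D1 gene, fell from 87.6 ± 5.10 to 74.2 ± 1.98 FPKM (log2 fold change -0.23, SE 0.056, adjusted p = 0.00353, limma).

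NRARP, which encodes a feedback inhibitor of Notch, was at 1.71, 2.11 and 1.38 FPKM in siControl and 1.43, 1.08 and 0.93 FPKM in siOXTR. These groups overlapped, with a fall of 1.51-fold in the means. The call (log2 fold change -0.35, adjusted p = 0.0193, limma) was lost in 4 of the 6 runs without 1 library: siControl replicate 1 (adjusted p = 0.0513), siControl replicate 2 (0.0918), siOXTR replicate 2 (0.0534) and siOXTR replicate 3 (0.0807). The NRARP call was also lost without the filter on low values (0.0525). It was kept after TMM-type scaling (log2 fold change -0.42, adjusted p = 0.00872, limma) and after rescaling to TPM (0.00907).

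HES4, MYC and SOX9 were named after their values were seen. HES4 was at 48.46, 59.91 and 53.45 FPKM in siControl and 60.83, 60.33 and 60.96 FPKM in siOXTR, a close separation. Its call as higher (adjusted p = 0.0454, limma) was lost after TMM-type scaling (0.608) and without any of 5 of the libraries, all but siControl replicate 2 (0.0801 to 0.184). MYC levels averaged 33.5 ± 2.56 FPKM in the control group and 29.8 ± 0.878 FPKM after knockdown, with overlapping groups. Its call as lower (adjusted p = 0.0448, limma) was lost without any of 5 of the libraries, all but siControl replicate 1 (0.0595 to 0.143). The MYC call was also lost without the filter on low values (0.0813) and with a plain variance prior (0.0635). It was kept after TMM-type scaling (log2 fold change -0.28, adjusted p = 0.00275, limma) and after rescaling to TPM (0.00461). SOX9 averaged 32.4 ± 2.32 and 33.1 ± 1.53 FPKM, with overlapping groups and no call. HES5, HEY1, HEY2 and HEYL, targets known from other tissues, were at most 0.07 FPKM in any library.

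**Figure D4:**
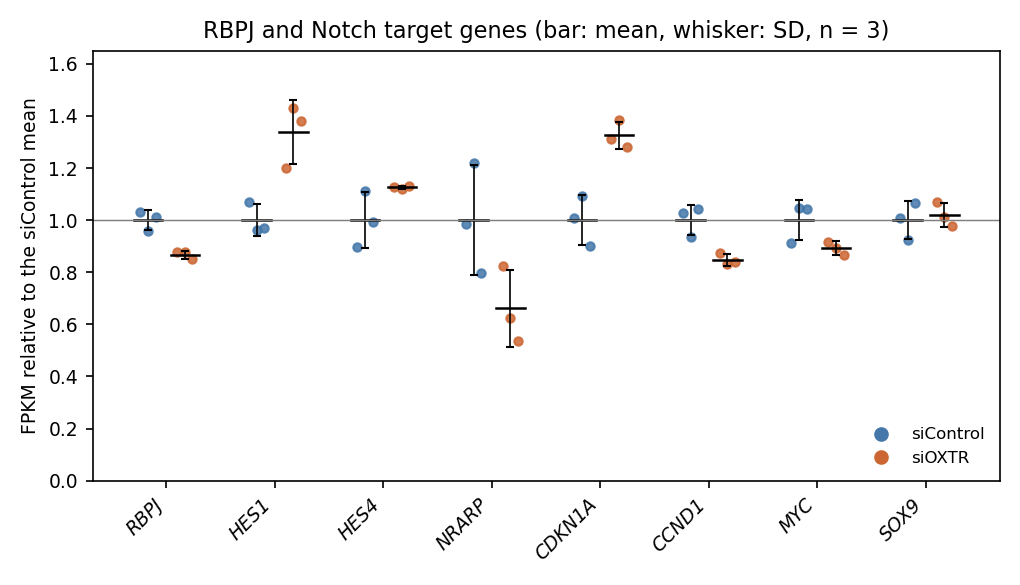
FPKM of RBPJ and of 7 Notch target genes in each library, divided by the gene's siControl mean, with the mean as a bar and the SD as a whisker. HES1, HES4 and CDKN1A lie above 1 in every siOXTR library, and RBPJ, CCND1, MYC and NRARP lie below 1. The siControl and siOXTR groups overlap for MYC, NRARP and SOX9.

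Cofactors in the nucleus were also mixed, with 6 of 12 tested genes higher and 3 lower, and 4 higher and 3 lower after TMM-type scaling. The rises were near the share of all tested genes as deposited (42.2% rose, 17.6% fell), and after scaling that share was 19.3% higher and 24.5% lower. The acetyltransferase genes KAT2A and KAT2B, coactivators of the Notch complex, rose by 0.39 and 0.36 on the log2 scale, and SNW1, which encodes a protein that binds RBPJ, by 0.31.

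Over the whole list of 65 other pathway genes, 63 were in the files and 47 were tested, of which 15 rose, 17 fell and 15 did not pass the threshold, beside 42.2% rising and 17.6% falling among all tested genes. After TMM-type scaling 7 rose and 21 fell, beside 19.3% and 24.5%. With the deposited values the median log2 fold change of the 47 was 0.032, below the 0.128 of all tested genes. None of the 47 then had a fall of at least 1 on the log2 scale, where 5 of the 9 core genes did. The 9 genes and this list were set apart with earlier results of these data known, so the contrast is no test.

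**Figure D5:**
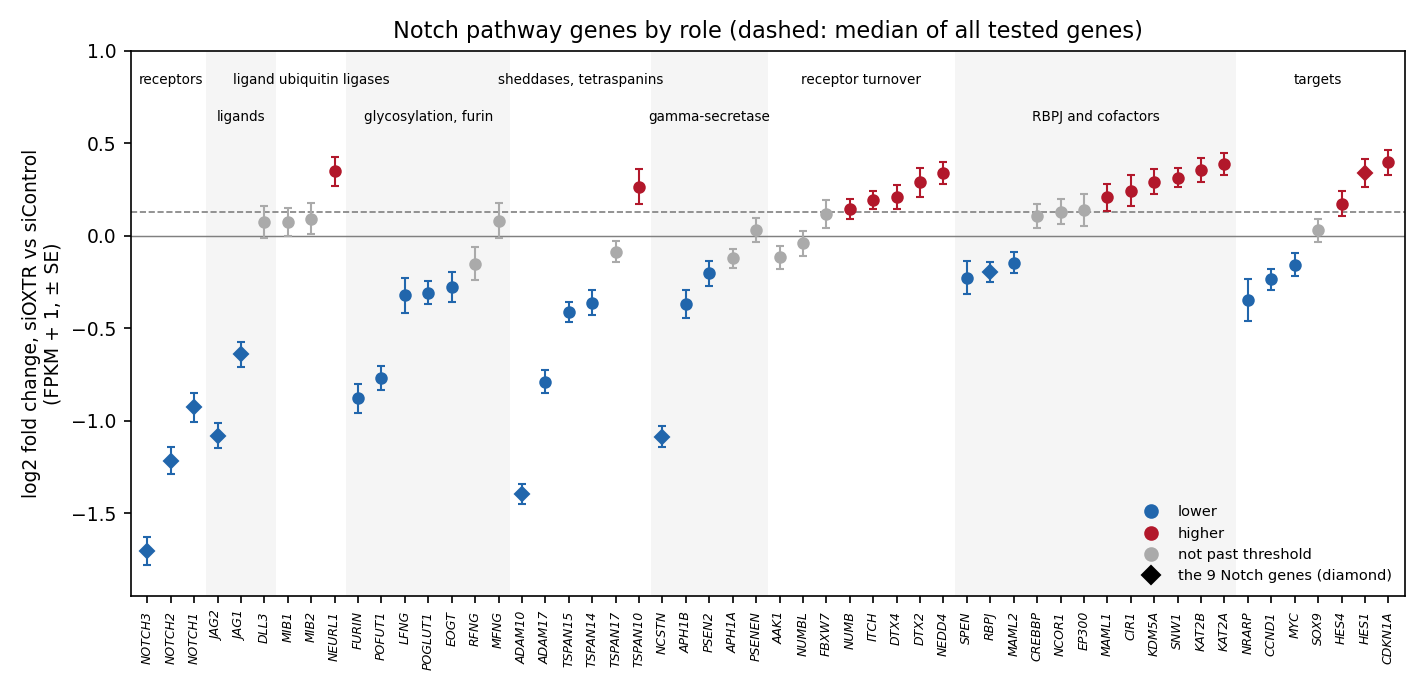
Log2 fold change (siOXTR against siControl, FPKM + 1, ± SE) of the 9 Notch genes (diamonds) and the other tested pathway genes that are reported here (circles), ordered within each role. The lowest point of the receptor, ligand, sheddase and gamma-secretase groups is a diamond in each case (NOTCH3, JAG2, ADAM10 and NCSTN), and the genes for receptor turnover lie between -0.12 (AAK1) and 0.34 (NEDD4).

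The Notch genes were also set beside tested genes with the same predicted protein build, a sorting made with the changes known and so no test. From the main coding transcript in GENCODE release 29, the proteins of the 3 receptors, both ligands, ADAM10 and NCSTN were predicted to have a hydrophobic stretch at their start, as a signal peptide has, and at least 1 later membrane segment. All 7 fell, and among the 885 tested genes of the same prediction 68.5% fell and 7.57% rose, with a median log2 fold change of -0.42. Within those 885, ranked from the lowest, NOTCH3 was number 12, ADAM10 34, NOTCH2 60, NCSTN 84, JAG2 85, NOTCH1 144 and JAG1 297. RBPJ and HES1 had neither feature, and of 7999 such genes 6.21% fell and 50.9% rose, with a median of 0.17. RBPJ was number 422 and HES1 number 6665 in that order, so RBPJ fell in a class where few genes did.

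Without the 9 core genes the wider pathway did not follow its classes throughout with the deposited values. Of 8 other pathway genes with both features 3 fell (ADAM17, TSPAN14 and APH1B) and DTX4 rose, a lower share of falls than the 68.5% of the class. After TMM-type scaling 5 of these 8 fell and none rose, and no share of the class was computed under that scaling. Their median log2 fold change was then -0.23, against -0.53 for the class. Of 23 with neither feature 12 rose, close to the 50.9% of that class, and 4 fell, a higher share than its 6.21%. With a start stretch alone 4 of 7 fell and none rose, against 46.4% and 22.8% of the 870 tested genes of that kind. With later segments alone 5 of 8 fell and 2 rose, against 30.8% and 29.2% of 1690. The prediction makes errors: DTX4, a protein of the cytoplasm, was given a start stretch. MIB2, DTX2 and SPEN, which are not membrane proteins, make up 3 of the 8 genes with later segments alone.

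Among the genes closest to NOTCH3 in profile over the 6 libraries, outside the pathway lists, were DAG1 (dystroglycan) and ITGB4 (an integrin), at distances of 0.131 and 0.158 between centred log2(FPKM + 1) values. Their log2 fold changes were -1.67 and -1.75. Closest to HES1 were ZNF181, RBM4B and KRBOX4, at distances of 0.070, 0.072 and 0.085 and with log2 fold changes of 0.35, 0.35 and 0.31. With 2 groups of 3 libraries such likeness reflects mainly the size of the group difference.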

How the data were processed

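RNA from 6 SNU216 libraries (3 siControl, 3 siOXTR, grouped by title) was compared. The deposited values are FPKM, per the file headers, with 2 decimals and 1 value per gene and library. Per the submitters' processing notes the genome build was GRCh38.p13; the aligner, quantifier and annotation behind the deposited values are not stated in the labels or headers. Depth is unknown: a search of low values for whole-fragment steps gave a best coherence of 0.160 to 0.205 of a possible 1, at a different depth in each library. Hence no count model was used. A gene averaging 1 FPKM or more was tested as log2(FPKM + 1) by limma 3.58.1 (R 4.3.3, group as the only term, mean trend, robust prior, two-sided), adjusted by Benjamini-Hochberg over 11550 genes. The script was tested on simulated data. Ratios within a library were compared by exact permutation tests (scipy 1.17.1).

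TMM-type scaling trimmed 30% of log ratios and 5% of mean levels at each end. The other alternatives were a pseudocount of 0.1, no filter, TPM, a plain variance prior, a replicate block and leaving out each library. Named genes were OXTR, the 9 Notch genes, up to 3 called genes with the largest change per group of the pathway list, the members of each ratio, and the nearest profiles. TSPAN10, TSPAN17, POGLUT1, EOGT, AAK1, DLL3, ITCH, SNW1 and other genes outside that rule were named after their values were seen. The 9 genes and all lists were chosen with earlier results of these data known. Gene positions are from GENCODE release 29 (GRCh38). Segments were predicted by Kyte-Doolittle hydropathy: a mean of at least 2.2 over 9 residues within the first 35, or of at least 1.7 over 19 residues later on. Equal values between libraries of a group made up at most 0.606% of genes tested, and each library was taken as 1 replicate. Some genes that the rule names, and 1 ratio, are not reported here and are left out of the figures, though counts over lists include every tested gene.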

Additional observations from a re-analysis of the deposited data

How the results depend on the processing

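Each of the 9 Notch genes and OXTR kept its direction and its side of the threshold under all 12 alternatives. Log2 fold changes ranged from -1.89 to -1.66 for NOTCH3, from -0.32 to -0.17 for RBPJ (adjusted p up to 0.0371) and from 0.23 to 0.41 for HES1 (adjusted p up to 0.0258, limma). Counts of rises depended on scaling: 2228 genes rose after TMM-type scaling and 2942 after rescaling to TPM, against 4869 as deposited, and 7 and 8 of the other pathway genes, against 15. Without the filter on low values 10 rose. Without 1 library, 3980 to 4671 genes rose and 1820 to 2028 fell, and 10 to 14 of the other pathway genes rose and 12 to 18 fell. With the FPKM of the NOTCH2NL genes added to NOTCH2, the receptor shares differed by -1.18 (NOTCH1, a change of direction), 17.6 (NOTCH2) and -16.4 (NOTCH3) percentage points. That sum ignores the unlike transcript lengths, so the change of direction does not measure shared reads.

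Genes near 0 changed sign without passing the threshold. DLL3 was at -0.0008, PSENEN at -0.093 and SOX9 at -0.0957 after TMM-type scaling, and PSENEN at -0.0527 and SOX9 at -0.0555 after rescaling to TPM. Without 1 library, PSENEN ranged from -0.0214 (siControl replicate 2) to 0.0889 (siOXTR replicate 1), and SOX9 from -0.0247 (siControl replicate 2) to 0.0755 (siControl replicate 3). Counted over the other named pathway genes and all alternatives, a call was lost 39 times and gained 7 times, each without a change of direction. The cause was not tested.

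The replicate numbers showed no evident pairing of the libraries (correlations of same-numbered deviations 0.107, 0.00421 and 0.16 over tested genes), and not every library correlated best with its own number. With 3 libraries per group these correlations cannot settle whether the libraries were paired. With a replicate block 5100 genes rose and 2105 fell, and the block changed no call among the 9 Notch genes. Unknown depth limits the values near 1 FPKM, such as NRARP and NOTCH1 in siOXTR.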
